A study of Homo sapiens with 6 samples.

Results

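The clustered protocadherins are 53 genes of chromosome 5q31, taken from the 28278 rows of the count tables by their symbols: 15 rows of the alpha array, 16 of the beta array and 22 of the gamma array. The family was chosen by a reader of earlier results of this same comparison, so its own values are given below as a description, and an adjusted p beside a member only reports that row of the fit across all genes. The libraries came from RKO, an established human cell line from a poorly differentiated colon carcinoma. Of 6 libraries, 3 carried a hairpin RNA against TRIM21 (shTRIM21) and 3 a scrambled hairpin (shControl). TRIM21 attaches ubiquitin to target proteins and serves as a receptor for antibody-coated particles inside the cell. Both groups were infected with lentivirus and kept in puromycin at 5 μg/ml from 36 h after infection for 2 to 3 weeks, so the controls share the vector and the selection. Total RNA was sequenced after removal of ribosomal RNA. The labels call the libraries biological replicates without naming separate infections, and do not give the number of hairpins or clones, so errors here are the spread between these libraries.

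Protocadherins are cell-surface adhesion proteins of the cadherin family. In neurons each cell switches on a few members of the clusters, and the resulting set of proteins serves as an identity label by which branches of one cell recognise and avoid each other. Each alpha and gamma gene has a large variable first exon with its own promoter, spliced to constant exons that all members of the array share and that code for a common cytoplasmic tail. Beta genes consist of a single coding exon and lack such a tail. PCDHAC1, PCDHAC2, PCDHGC3, PCDHGC4 and PCDHGC5 are the C-type members, which many neurons express together rather than by choice of a few. Most variable promoters carry a conserved box with the core CGCT, near which CTCF and cohesin bind and loop the chosen promoter to distant enhancers.

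The promoters of the beta gene with the smallest p and of the most abundant alpha and gamma member are shown because the results below turn on these 3 genes. Each runs 5′ to 3′ on the plus strand from 250 bases before to 50 after the RefSeq start in GRCh38.p14, with CGCT on the gene's strand and the commonest word of 9 bases of its array in capitals. PCDHB13 lies at chr5:141213669-141213968, PCDHAC2 at chr5:140966226-140966525 and PCDHGA10 at chr5:141412737-141413036.
PCDHB13: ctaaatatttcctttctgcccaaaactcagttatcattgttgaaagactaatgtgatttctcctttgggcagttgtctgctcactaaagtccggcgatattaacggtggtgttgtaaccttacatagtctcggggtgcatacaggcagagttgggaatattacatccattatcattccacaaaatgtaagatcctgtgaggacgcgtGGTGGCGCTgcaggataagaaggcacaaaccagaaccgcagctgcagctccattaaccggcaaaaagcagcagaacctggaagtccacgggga
PCDHAC2: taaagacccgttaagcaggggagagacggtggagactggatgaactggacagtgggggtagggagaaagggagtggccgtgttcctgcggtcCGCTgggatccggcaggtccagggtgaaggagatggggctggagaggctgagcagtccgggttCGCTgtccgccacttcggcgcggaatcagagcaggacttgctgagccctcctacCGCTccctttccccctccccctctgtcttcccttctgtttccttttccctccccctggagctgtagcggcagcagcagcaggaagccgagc
PCDHGA10: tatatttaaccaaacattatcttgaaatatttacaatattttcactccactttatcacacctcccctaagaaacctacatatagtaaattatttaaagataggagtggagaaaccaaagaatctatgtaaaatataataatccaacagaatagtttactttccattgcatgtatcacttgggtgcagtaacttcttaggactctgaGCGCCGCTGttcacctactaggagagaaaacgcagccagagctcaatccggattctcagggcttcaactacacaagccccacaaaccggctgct

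Windows of 33 bases around the array words show the bases beside them. Only promoters that hold the word of their array were used, so the equal capitals within an array follow from that choice. The word of 9 bases is in capitals, on the gene's strand, in GRCh38.p14.
PCDHA1: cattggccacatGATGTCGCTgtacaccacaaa
PCDHA10: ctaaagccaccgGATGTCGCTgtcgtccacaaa
PCDHB10: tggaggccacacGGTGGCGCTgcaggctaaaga
PCDHB14: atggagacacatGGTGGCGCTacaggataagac
PCDHGA9: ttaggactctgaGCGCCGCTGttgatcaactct
PCDHGA11: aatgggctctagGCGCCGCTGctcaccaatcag

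Promoters of 47 of the 53 members were in the RefSeq table of 35116 promoters. Where several words of 9 bases were equally common in an array, the one in the fewest of these 35116 promoters was taken. Low shares over all promoters, and absence from the other arrays, may thus partly follow from that choice. The beta word GGTGGCGCT was in 13 of 14 beta promoters, in none of the 13 alpha and none of the 20 gamma promoters, and in 0.501% of all promoters of the table on either strand. PCDHB1 was the beta promoter without it. The alpha word GATGTCGCT was in 9 of 13 alpha promoters and in 0.105% of all promoters, and was absent from PCDHA9, PCDHA11, PCDHAC1 and PCDHAC2. The gamma word GCGCCGCTG was in 7 of 20 gamma promoters and in 1.28% of all promoters. The core CGCT itself, which the 3 words contain, was in 46 of the 47 on either strand, but 70.0% of all promoters hold these letters. In PCDHB13 the beta word began 43 bases before the start, in PCDHB14 69 bases, and in PCDHGA10 the gamma word began 44 bases before it. The promoters also differed in base content: PCDHAC1 and PCDHAC2 held 27 and 15 CG pairs in 300 bases. The medians were 7 over the alpha, 8 over the beta, 7 over the gamma and 14 over all promoters. In the gamma array PCDHGB6 and PCDHGC4 held 25 and 24 CG pairs, and PCDHGA10, the most abundant gamma member, held 5.

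**Figure D1:**
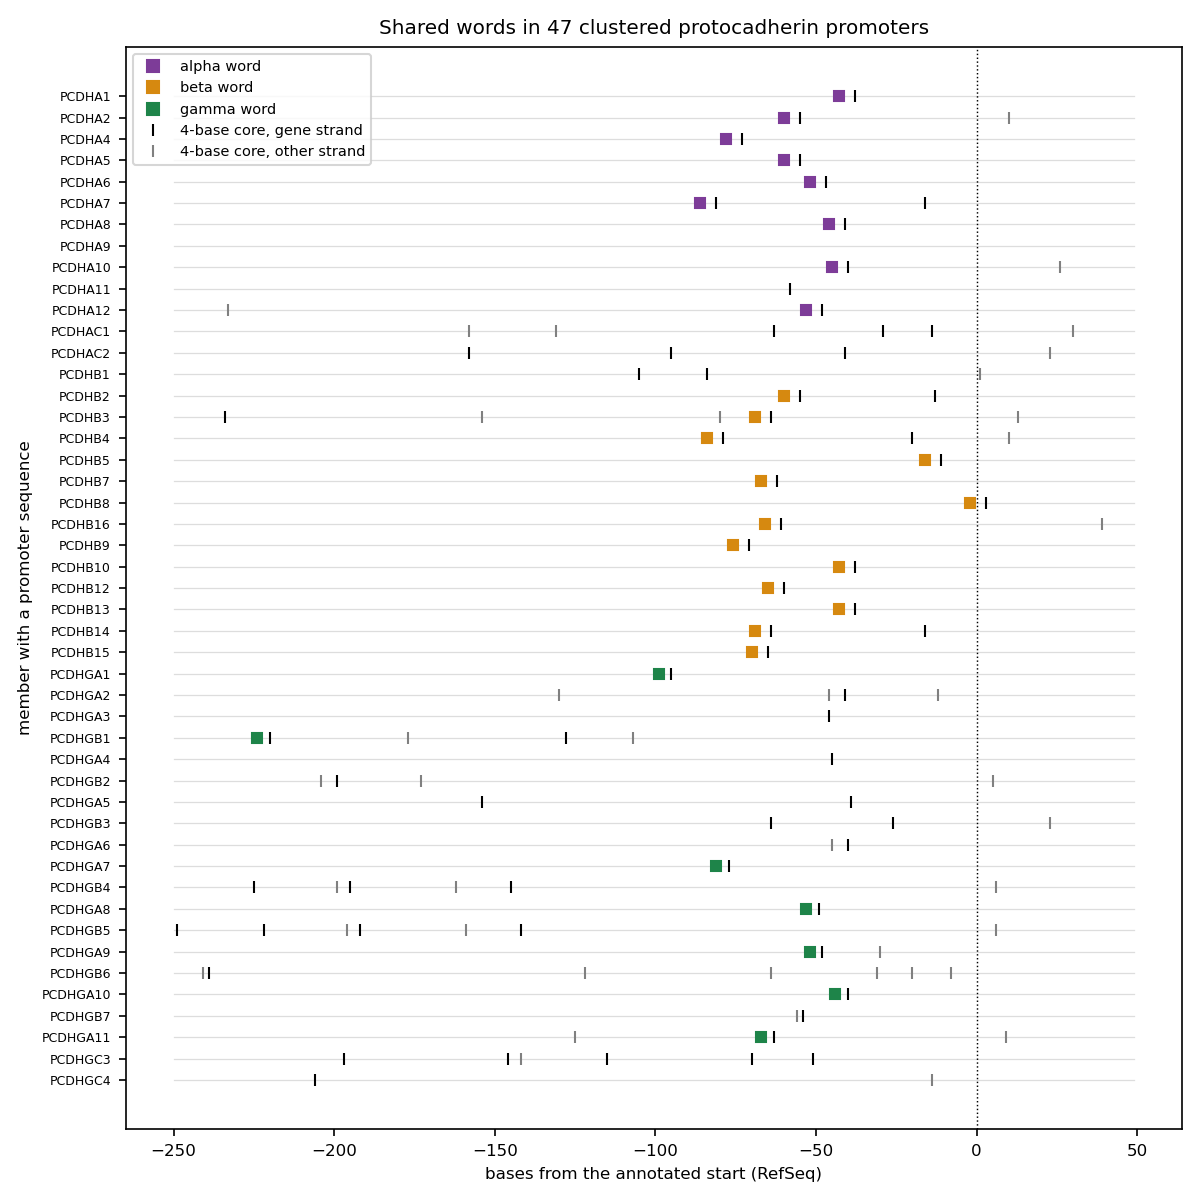
Position of shared words in the 47 promoters found, 1 row per gene in chromosome order, with bases from the RefSeq start on the horizontal axis. Squares are the commonest word of 9 bases of each array and ticks the core of 4 bases on the gene's strand (black) or the other strand (grey). The beta squares stand in 13 of 14 rows, and PCDHAC1 and PCDHAC2 have ticks but no square.

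The libraries held between 33499827 and 44466137 counts, and 27808151 to 29100459 without ribosomal RNA rows. In shTRIM21 ribosomal RNA was 17.0% to 23.5% of each library. In shControl replicate 2 it was 14.7%, while replicates 1 and 3 stand above the other 4 libraries, the latter at 36.9%, and calls of named genes that were lost without both are given below. That fit keeps 1 control library, which is assumed to vary as the shTRIM21 libraries do. TRIM21 had 299, 271 and 297 counts in shTRIM21 and 459, 421 and 343 in shControl, a log2 fold change of -0.54 (SE 0.12, adjusted p = 0.00424, edgeR). Of the epithelial markers 6 of 6 were measured, with EPCAM at 198 ± 5.42 and 180 ± 19.6 CPM (SD, n = 3 each). Of 7 intestinal markers only 3 had enough counts to be tested. CDX2 and VIL1 were present, while CDX1 was at 0 in all libraries. Levels are in CPM, counts scaled to a common TMM-adjusted library size, and log2 fold changes are shTRIM21 minus shControl.

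In RKO cells the clusters were expressed at a low level. Most alpha and gamma reads beyond those that all rows of an array share were on few members. That split was chosen after seeing the data, and promoter use was not measured. Alpha reads were higher in shTRIM21, 1.44-fold over the reads that all alpha rows share. No gamma row was called, and the 95% interval of the gamma shared reads spanned 0. Of the 16 beta genes, PCDHB13 was higher 2.69-fold at under 1 CPM, PCDHB14 varied widely between libraries, and the other 14 were too low to test. PCDHB13 and PCDHB14 passed the count filter only through their shTRIM21 libraries. That the tested beta genes were higher in shTRIM21 thus partly follows from the filter. Of 39 members tested, 16 were called higher at an adjusted p under 0.05, 0 lower, and 23 were not called. Over all 15131 genes tested, 20.8% were called, 9.77% higher and 11.0% lower, or 1479 and 1667 genes. With upper-quartile factors this split was 1899 and 1161, and with library sizes alone 1831 and 138. The 16 calls are not 16 measurements: 15 are alpha rows that repeat the same reads. In bulk RNA, fewer cells expressing a gene and less RNA per cell cannot be told apart.

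**Figure D2:**
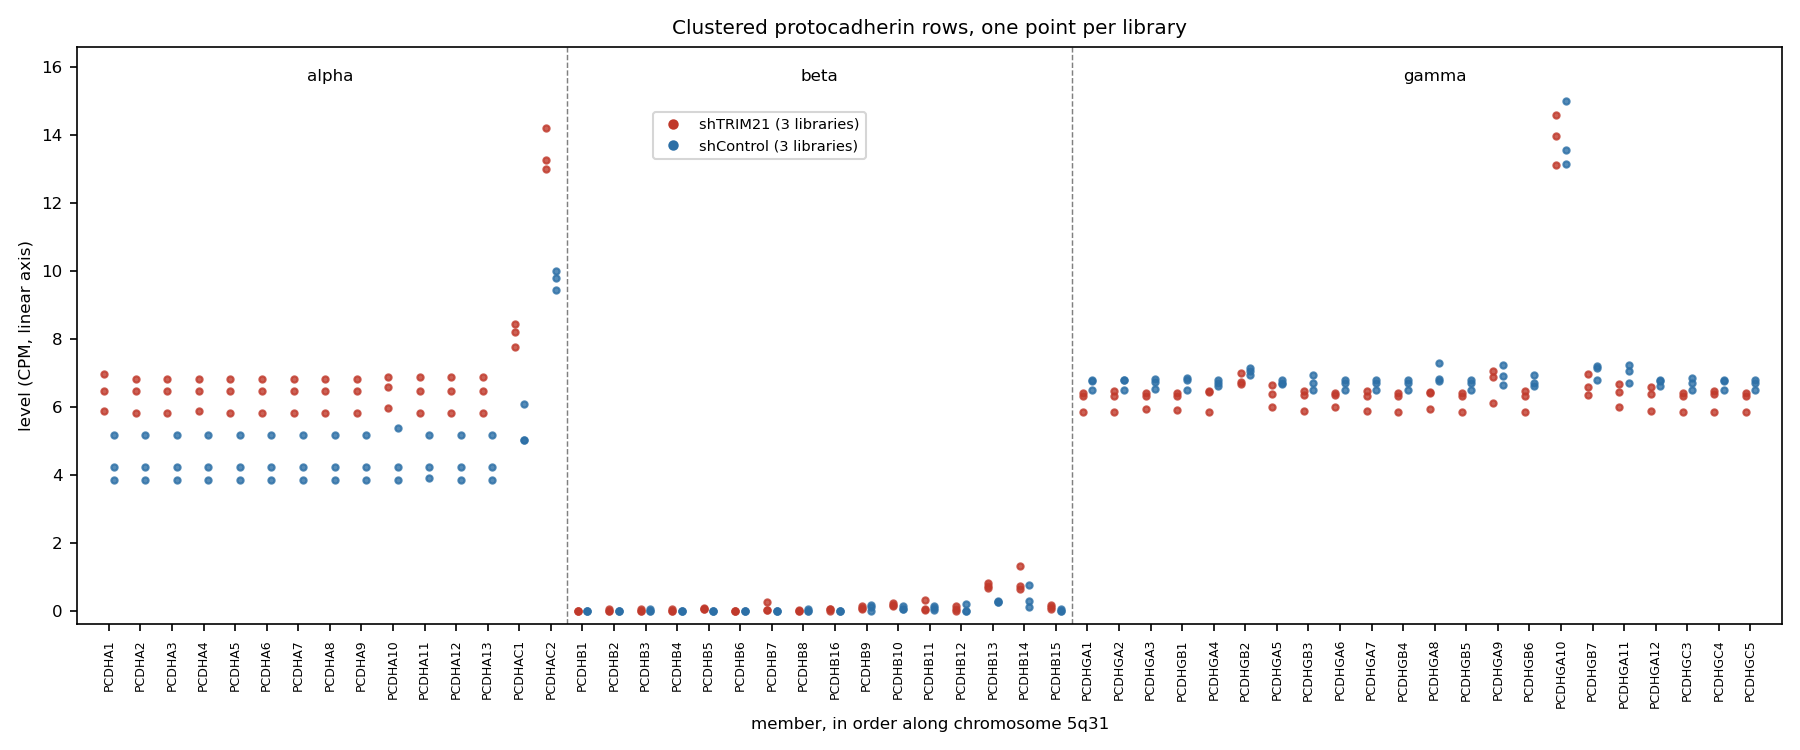
Level of each of the 53 rows in CPM (linear axis) in chromosome order, 1 point per library, shTRIM21 red and shControl blue. The alpha rows from PCDHA1 to PCDHA13 form 1 flat level with the groups apart, the gamma rows form another with the groups close, and PCDHAC2, PCDHAC1 and PCDHGA10 rise above these levels.

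The rows of an array were nearly copies of each other. In each library 13 of the 15 alpha rows lay within 10 counts of the lowest, which held 219, 254 and 258 counts in shTRIM21 and 160, 142 and 187 in shControl. In the gamma array 18 or 19 of 22 rows lay within 10 counts of the lowest. Each row was therefore split into shared reads, the lowest row of its array in that library, and own reads, what the row holds above it. On this reading, reads from the constant exons are listed once for every row. Shared reads made up between 88.7% and 93.0% of the summed alpha counts, and between 91.9% and 94.3% of the gamma counts. In GENCODE release 29, exons common to every alpha gene cover 2866 bases and those common to every gamma gene 2181.

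The alpha shared reads were higher in shTRIM21. In CPM they were 5.84, 6.48 and 6.82 in shTRIM21 and 4.24, 3.86 and 5.16 in shControl, with no overlap between groups. The means were 6.38 ± 0.498 and 4.42 ± 0.668 CPM (SD, n = 3 each), a log2 fold change of 0.53 (SE 0.14, 95% interval 0.22 to 0.84). These reads belong to the common cytoplasmic tail and 3′ end, so they do not say which promoter was used.

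PCDHAC2, the most abundant alpha member, spans chr5:140966476-141012347 (GRCh38.p14). Its row held 488, 520 and 538 counts in shTRIM21 and 356, 368 and 355 in shControl, a log2 fold change of 0.47 (SE 0.092, adjusted p = 0.00221, edgeR). Its own reads were 269, 266 and 280 against 196, 226 and 168. All 3 shTRIM21 libraries were above all 3 shControl libraries. The own reads gave 7.12 ± 0.306 against 5.33 ± 0.765 CPM, a log2 fold change of 0.42 (SE 0.13, 95% interval 0.14 to 0.70). The antisense gene AC010223.1 overlaps these own bases, and the strand of the counting is not given in the sources used here.

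PCDHAC1, the other C-type alpha member, spans chr5:140926299-141012347. Its row held 291, 331 and 311 counts against 190, 185 and 221, a log2 fold change of 0.60 (SE 0.12, adjusted p = 0.00313, edgeR). Its own reads were fewer, 72, 77 and 53 in shTRIM21 and 30, 43 and 34 in shControl. The groups did not overlap, and the log2 fold change of the own reads was 0.86 (SE 0.27, 95% interval 0.29 to 1.44). The ratio of PCDHAC1 to PCDHAC2 own reads was 0.249 ± 0.0527 in shTRIM21 and 0.182 ± 0.0257 in shControl, with overlap between groups. Without shControl replicates 1 and 3, the libraries richest in ribosomal RNA, the log2 fold change of own reads was 0.20 (SE 0.16) for PCDHAC2 and 0.58 (SE 0.36) for PCDHAC1, and that of the shared reads 0.72 (SE 0.19). The PCDHAC2 row then had an adjusted p of 0.0515 and that of PCDHAC1 0.0184 (edgeR).

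The 13 variable alpha genes, PCDHA1 to PCDHA13, showed almost no reads of their own. PCDHA2, PCDHA3 and PCDHA5 to PCDHA9 had 0 own reads in all 6 libraries, since they are the lowest rows. PCDHA10 had 19 own reads over the 6 libraries and PCDHA1 had 8, of which 6 were in shTRIM21 replicate 3. PCDHA4, PCDHA11, PCDHA12 and PCDHA13 had at most 3 in any library. The 13 rows had log2 fold changes between 0.53 and 0.55, which is the shared reads again. PCDHAC1 and PCDHAC2, the alpha members with most own reads, lack the alpha word. PCDHA9 and PCDHA11 also lack the alpha word and had 0 to 3 own reads in each library.

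The joint alpha measure, all 15 rows summed, was 3635, 4157 and 4218 counts in shTRIM21 and 2626, 2401 and 3016 in shControl, a log2 fold change of 0.53 (SE 0.080). This sum enters each shared read 15 times, so its SE is too small. With each read counted once, the counts were 569, 601 and 606 against 386, 413 and 398. The groups stood apart, with means of 15.5 ± 0.446 and 10.8 ± 0.526 CPM and a log2 fold change of 0.52 (SE 0.089, 95% interval 0.33 to 0.71). The number of called members rests on the libraries: without shTRIM21 replicate 2 or 3, or shControl replicate 1 or 2, it was 3, 2, 4 and 3. PCDHAC1 and PCDHAC2 were called in each of these 4 fits, and PCDHA1 had an adjusted p between 0.0482 and 0.0563 in them (edgeR).

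**Figure D3:**
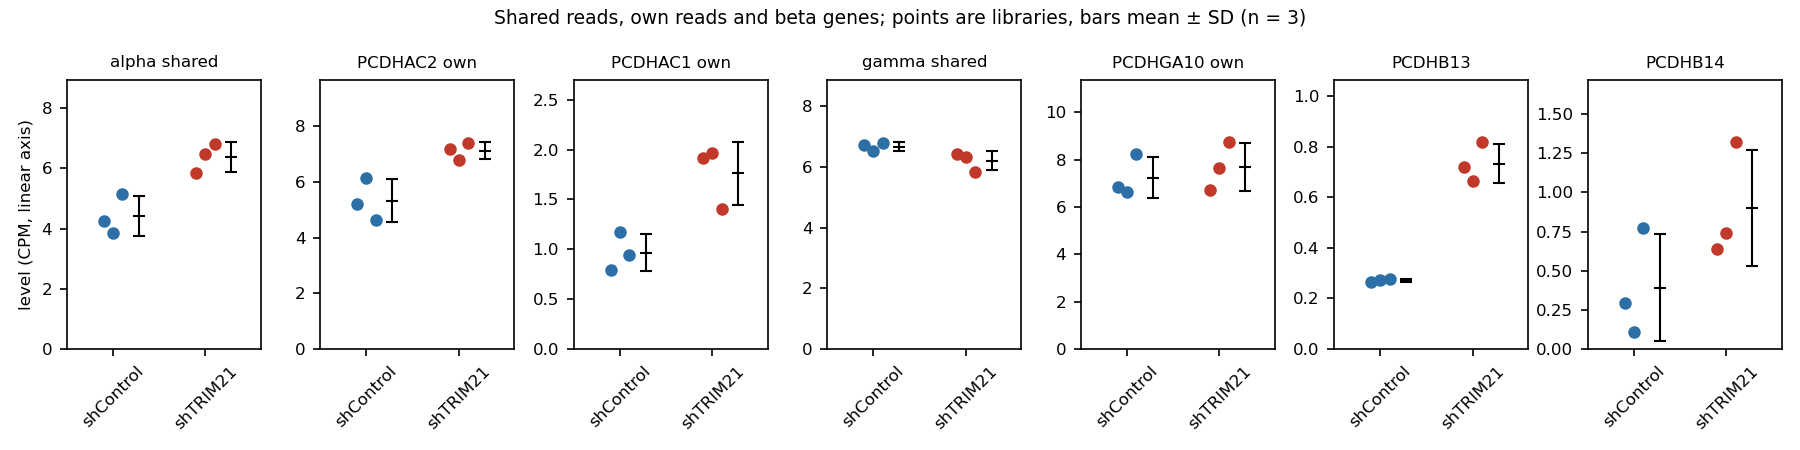
Level in CPM (linear axes from 0, with a scale for each panel) of shared reads, own reads and the 2 beta genes tested, by group. Points are libraries and bars the mean ± SD (n = 3). The groups stand apart in the alpha panels and in PCDHB13, touch nearly in the gamma shared reads, and overlap in PCDHGA10 and PCDHB14.

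The gamma array was of similar level and did not follow the alpha array. Its shared reads were 241, 248 and 221 counts in shTRIM21 and 253, 239 and 246 in shControl. In CPM the highest shTRIM21 library, at 6.42, lay just under the lowest shControl library, at 6.50. The means were 6.20 ± 0.314 and 6.66 ± 0.147 CPM, and the log2 fold change was -0.10 (SE 0.12, 95% interval -0.35 to 0.14). A difference within these limits was not detectable at this depth. Since 22 rows repeat these reads, 18 of them also had groups that did not overlap, with shTRIM21 lower, beside 19.0% of all genes tested. None of the 22 was called, and their adjusted p lay between 0.381 and 0.996 (edgeR).

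PCDHGA10, at chr5:141412987-141512975, was the gamma member with most reads of its own. Its row held 493, 547 and 552 counts in shTRIM21 and 512, 483 and 544 in shControl. These overlapped, with means of 13.9 ± 0.725 and 13.9 ± 0.983 CPM. The log2 fold change was -0.00084 (SE 0.091, 95% interval -0.20 to 0.19), and its sign turned with other scalings or libraries left out. The own reads were 252, 299 and 331 against 259, 244 and 298, a log2 fold change of 0.089 (SE 0.13).

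Own reads of the other 21 gamma members were few. PCDHGB2 had 22, 16 and 32 in shTRIM21 and 17, 20 and 6 in shControl. PCDHGB7 had 21, 10 and 20 against 19, 11 and 13. These 2 members belong to the B type of gamma genes, and their groups overlapped. PCDHGA9 had 17, 29 and 10 against 20, 5 and 4, and PCDHGA11 had 10, 4 and 6 against 0, 20 and 16. Both varied between libraries of 1 group by more than the groups differed. PCDHGA8 had 0, 4 and 4 against 5, 10 and 18, the only gamma member whose own reads did not overlap. These reads were too few to test, and 19.0% of all genes tested stood apart in that direction. The C-type members PCDHGC3, PCDHGC4 and PCDHGC5 had at most 2 own reads in any library, unlike the C-type alpha members.

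Summed over its rows, the gamma array had 5649, 5832 and 5291 counts in shTRIM21 and 5901, 5587 and 5784 in shControl, a log2 fold change of -0.091 (SE 0.052). That sum is mostly the shared reads taken 22 times. With each read counted once there were 588, 624 and 650 counts against 588, 568 and 618, and the log2 fold change was 0.021 (SE 0.086, 95% interval -0.16 to 0.20). The sign of the gamma measure thus depended on how the rows were joined. The ratio of alpha to gamma shared reads, which needs no scaling between libraries, was 0.909, 1.02 and 1.17 in shTRIM21 and 0.632, 0.594 and 0.760 in shControl. All 3 shTRIM21 ratios were above all 3 shControl ratios. The exact permutation test gave p = 0.1, the smallest it can give with 3 libraries per group (adjusted p = 0.36 over 6 ratios). It could not reach 0.05 whatever the values, and the split behind the ratio was chosen after seeing the data. The test thus decides nothing here. The ratio of PCDHAC2 to PCDHGA10 own reads overlapped between groups, at 0.934 ± 0.117 and 0.749 ± 0.181 (SD, n = 3 each).

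Per length of exon the shared and own reads can be compared. The alpha shared reads stood at 2.23 ± 0.174 CPM per kb in shTRIM21 and 1.54 ± 0.233 in shControl. PCDHAC2 own reads stood at 2.06 ± 0.0888 and 1.54 ± 0.222 CPM per kb, and PCDHAC1 own reads at 0.432 ± 0.0770 and 0.237 ± 0.0464. Summed over the 15 alpha members, own reads per kb were 1.15 ± 0.102 times the shared reads per kb in shTRIM21 and 1.19 ± 0.333 times in shControl. The reads above the common exons of the alpha array were thus nearly all on PCDHAC2 and PCDHAC1. The gamma shared reads stood at 2.84 ± 0.144 and 3.06 ± 0.0675 CPM per kb, and PCDHGA10 own reads at 1.73 ± 0.228 and 1.62 ± 0.192. Over the 22 gamma members the summed own reads were 0.904 ± 0.140 and 0.759 ± 0.0303 times the shared reads per kb. PCDHGA10 held 76.4% ± 3.51 of the gamma own reads in shTRIM21 and 77.2% ± 2.97 in shControl.

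**Figure D4:**
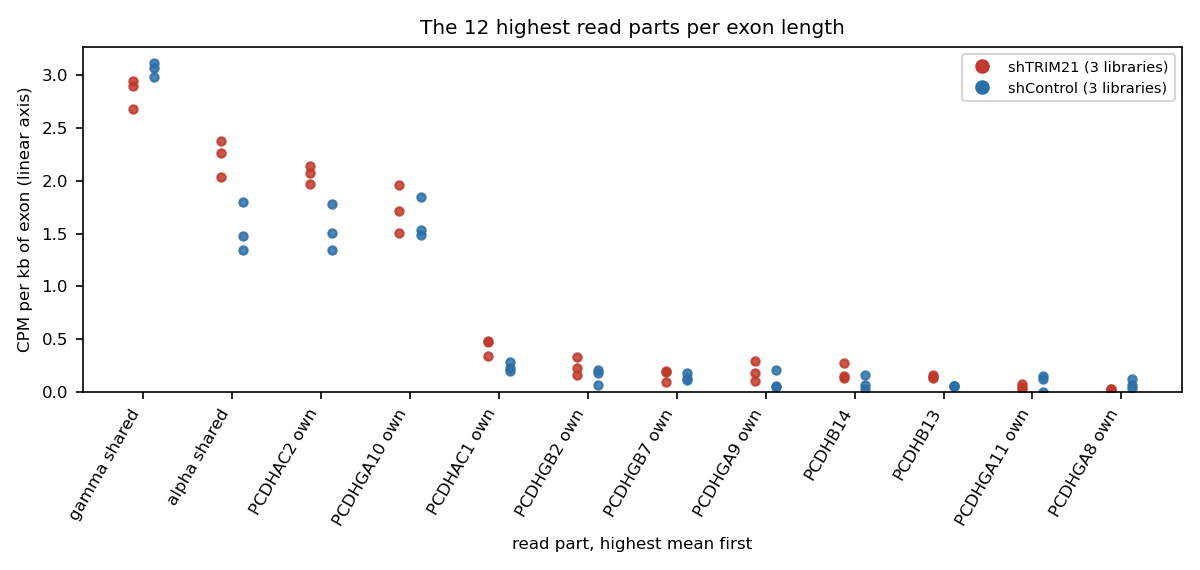
The 12 read parts with the highest mean level in CPM per kb of exon (linear axis from 0), highest first, 1 point per library. The 2 shared parts, PCDHAC2 and PCDHGA10 lie between 1.34 and 3.11 CPM per kb, and all others lie under 0.5.

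Beta genes were expressed far below the other arrays. Together they had 69, 88 and 125 counts in shTRIM21 and 41, 21 and 53 in shControl, or 2.46 ± 0.755 against 1.04 ± 0.448 CPM. PCDHB13 and PCDHB14, which are neighbours, held 67.1% ± 6.04 of these counts in shTRIM21 and 63.2% ± 10.7 in shControl. PCDHB1 and PCDHB6 were at 0 in all libraries.

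PCDHB13, at chr5:141213919-141218979, had 27, 26 and 31 counts in shTRIM21 and 10, 10 and 10 in shControl. Its levels were 0.734 ± 0.0786 and 0.271 ± 0.00561 CPM, with no overlap. Like PCDHB14, it passed the count filter only through its shTRIM21 libraries, so the direction of its change partly follows from the filter. The log2 fold change was 1.43 (SE 0.37, 95% interval 0.64 to 2.21, adjusted p = 0.0132, edgeR). Without shTRIM21 replicate 3 the log2 fold change was 1.34 (adjusted p = 0.0553, edgeR). With shControl replicate 2 as the 1 control library it was 1.41 (adjusted p = 0.171, edgeR). PCDHB13 shares 15.1% of its words of 100 bases with another clustered protocadherin, most with PCDHB8, which had at most 2 counts in any library.

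PCDHB14, at chr5:141223343-141227759, had 24, 29 and 50 counts in shTRIM21 and 11, 4 and 28 in shControl. In CPM shControl replicate 3, at 0.773, lay above shTRIM21 replicates 1 and 2, at 0.640 and 0.740, and the other 2 shControl libraries lay below all 3. The log2 fold change was 1.20 (SE 0.51, 95% interval 0.11 to 2.29) and the adjusted p 0.112, so the gene was not called (edgeR). Without shControl replicate 3 the log2 fold change was 2.14 (adjusted p = 0.0182, edgeR). The overlapping gene AC244517.10 lies on the same strand, and reads of the 2 genes were not told apart. The promoters of PCDHB13 and PCDHB14 both hold the beta word, as do those of 11 beta genes that were too low to test.

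The remaining 14 beta genes had at most 12 counts in any library. PCDHB10 had 6, 6 and 9 against 5, 2 and 2, PCDHB5 had 2, 2 and 3 against 0 in all 3, and PCDHB7 had 1, 10 and 1 against 0 in all 3. With PCDHB13 these are the 4 beta genes whose groups did not overlap. PCDHB10, PCDHB5 and PCDHB7 were too low to test, and PCDHB7 stood apart by 1 count against 0. No share over all genes was counted for rows that low. PCDHB11, PCDHB12, PCDHB9 and PCDHB15 overlapped, and PCDHB2, PCDHB3, PCDHB4, PCDHB8 and PCDHB16 had at most 2 counts in any library. Of the tested members, 16 had groups without overlap with shTRIM21 higher, as did 18.7% of all genes tested. Of the 16, 15 are alpha rows that repeat the same reads. For single genes of a few counts no difference was detectable at this depth.

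Of 24 neighbours on 5q31 in the table, 19 were tested, 3 rose, 1 fell and 15 were not called, with a median log2 fold change of 0.046 against 0.0054 over all genes. The called share was 21.1%, near the 20.8% of all genes. TAF7, a subunit of the general transcription factor TFIID whose gene lies between the beta and gamma arrays, rose from 56.7 ± 2.78 to 70.6 ± 1.45 CPM. Its log2 fold change was 0.32 (SE 0.058, adjusted p = 0.00149, edgeR). HARS2, the mitochondrial histidyl-tRNA synthetase, rose by a log2 fold change of 0.25 (SE 0.060) and TMCO6 by 0.33 (SE 0.092). HARS1 and ZMAT2, on either side of HARS2, had log2 fold changes of 0.046 and -0.0099 and were not called. DIAPH1, a formin that builds actin filaments and lies next to the gamma array, fell from 234 ± 0.213 to 192 ± 3.17 CPM, a log2 fold change of -0.28 (SE 0.048, adjusted p = 0.000795, edgeR). With library sizes alone the value was -0.072 and the call of DIAPH1 was lost. With 1 control library left, neither HARS2 (0.24) nor TMCO6 (0.37) was called, at folds close to those above. TMCO6 also lost its call without shTRIM21 replicate 1 or 3 or shControl replicate 2 or 3. TAF7 was called in all 16 alternatives.

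**Figure D5:**
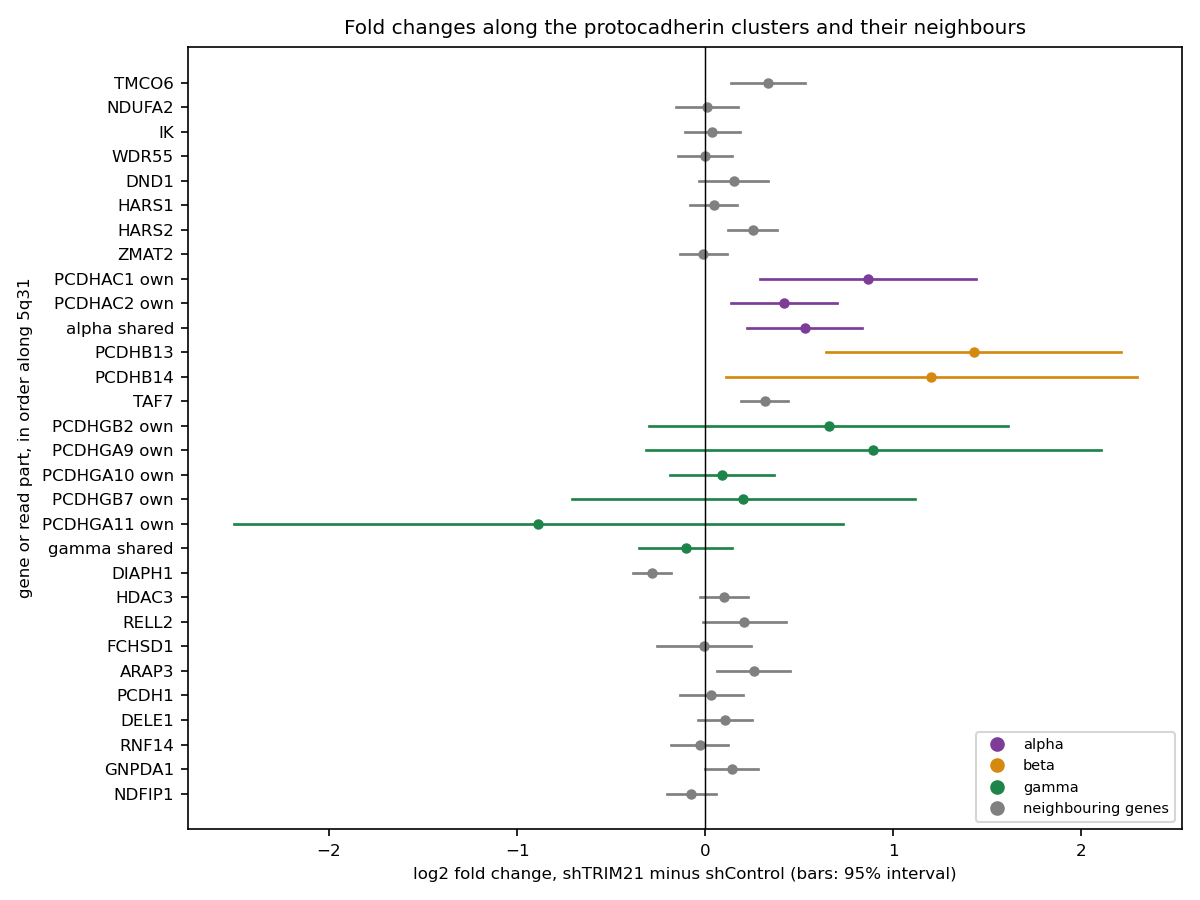
Log2 fold change (shTRIM21 minus shControl) with 95% intervals from the edgeR fits, for read parts and genes in chromosome order, alpha purple, beta orange, gamma green and neighbouring genes grey. The 3 alpha parts and the 2 beta genes lie above 0, the gamma shared reads and PCDHGA10 span 0, and TAF7 and DIAPH1 lie on opposite sides of 0 at the ends of the gamma array.

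Over the 5 lists of related genes, 95 were tested and 24 called, 15 higher and 9 lower, which is 25.3% beside 20.8% of all genes. Factors that act at the clustered protocadherin promoters were mostly not called. Of 30, all tested, 0 rose, 4 fell and 26 were not called, a called share of 13.3%, with a median log2 fold change of -0.071. CTCF, which binds the conserved box, was at 74.6 ± 2.22 CPM in shTRIM21 and 79.2 ± 2.63 in shControl, a log2 fold change of -0.086 (adjusted p = 0.292, edgeR). The 4 that fell were UHRF1, which guides maintenance of DNA methylation (-0.33), the cohesin subunit SMC1A (-0.21), the maintenance methyltransferase DNMT1 (-0.18) and the methylcytosine dioxygenase TET3 (-0.21). With library sizes alone, a scaling that moves the median of all genes to 0.22, none of the 4 was called and DNMT1 and TET3 turned sign. With upper-quartile factors DNMT1 and TET3 were not called either, and without shTRIM21 replicate 2 only UHRF1 of the 4 was. Without shControl replicates 1 and 3 DNMT1 was at -0.17 (adjusted p = 0.138, edgeR) and TET3 at -0.21 (adjusted p = 0.165, edgeR). Both also lost their calls without shTRIM21 replicate 1 or shControl replicate 3, and TET3 without shControl replicate 1.

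Proteins that bind or act on the protocadherin tail moved in both directions. Of 27, all tested, 5 rose, 4 fell and 18 were not called, a called share of 33.3% beside 20.8% of all genes. The kinase FYN (0.60, SE 0.12) and the receptor RET (0.57, SE 0.15) rose, as did ABI2 (0.30, SE 0.058) and CYFIP2 (0.33, SE 0.064), both subunits of the WAVE complex that starts actin branching. The kinases PRKCA (-0.66, SE 0.081) and ROCK2 (-0.50, SE 0.058) fell, as did the WAVE complex subunits WASF2 (-0.30, SE 0.052) and CYFIP1 (-0.15, SE 0.051). With library sizes alone none of these 4 was called, and CYFIP1 turned sign. RET lost its call without shTRIM21 replicate 2 or 3 or shControl replicate 2, and FYN, at 0.56, without shControl replicates 1 and 3 (adjusted p = 0.0551, edgeR). CYFIP1 was called in 6 of 16 alternatives and not without shControl replicates 1 and 3 (-0.12, adjusted p = 0.304, edgeR), and ABI2 and CYFIP2 in all 16. 

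Of 13 non-clustered protocadherins, 9 were at 0 in all libraries and 4 were tested. PCDH7 rose: its counts were 3122, 3336 and 3105 in shTRIM21 and 2248, 1926 and 1867 in shControl. The groups stood apart, at 83.5 ± 1.58 and 54.5 ± 4.40 CPM, with a log2 fold change of 0.61 (SE 0.064, adjusted p = 9.25e-06, edgeR), and the call held in all 16 alternatives run for it. PCDH1, at 5q31 outside the clusters, had a log2 fold change of 0.032 (SE 0.079, adjusted p = 0.816, edgeR).

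Among other cadherins 29 were in the table, 10 were at 0 in all libraries and 16 were tested. Of these 6 rose, 0 fell and 10 were not called, with a median log2 fold change of 0.25. The called share was 37.5% beside 20.8% of all genes. CDH1, the epithelial cadherin, rose from 41.8 ± 2.22 to 62.2 ± 4.53 CPM, a log2 fold change of 0.57 (SE 0.068, adjusted p = 3.31e-05, edgeR). CDH24 (0.57, SE 0.095), the flamingo cadherin CELSR3 (0.54, SE 0.13) and the placental cadherin CDH3 (0.22, SE 0.054) also rose. CDH1 and CDH24 were called in all 16 alternatives, while CELSR3 lost its call without shTRIM21 replicate 2 and CDH3 with library sizes alone.

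Markers of nerve cells and glia were measured because the clusters are best known there. Of 12 in the table, 6 were tested, 3 rose and 0 fell, and ELAVL4, STMN2 and OLIG2 were at 0 in all libraries. Their summed level was 263 to 278 CPM in shTRIM21 and 222 to 249 in shControl, most of it TUBB3, a tubulin also found in tumour cells. MAP2, a microtubule protein, rose from 2.83 ± 0.986 to 6.37 ± 0.807 CPM and GFAP, an astrocyte filament, from 0.424 ± 0.0378 to 1.06 ± 0.188. Of 6 epithelial markers tested CDH1 rose and 3 fell, the keratins KRT8, KRT18 and KRT19. That is a called share of 66.7% beside 20.8% of all genes. The summed level of the 6 was 4778 to 5012 CPM against 6131 to 6773. With library sizes alone none of the keratins or TUBB3 was called. TUBB3 also lost its call without shTRIM21 replicate 2 or shControl replicate 2. GFAP had a log2 fold change of 1.23 without shTRIM21 replicate 1 (adjusted p = 0.0514, edgeR) and 1.46 without shControl replicates 1 and 3 (adjusted p = 0.0970, edgeR), and was called in neither fit. Of 7 fibroblast markers 2 were tested and 0 called, with DCN and LUM at 0 and a summed level of 10.5 to 11.1 CPM against 6.15 to 9.19. Of 7 blood and endothelial markers 2 were tested and 0 called, with CD3E at 0 and a summed level of 6.08 to 7.38 CPM against 7.62 to 8.53. Of 7 intestinal markers 3 were tested and 0 called, with a summed level of 33.4 to 36.3 CPM against 33.2 to 35.2. The part of these markers in the alpha or beta values was not tested.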

How the data were processed

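Each library has 1 deposited table of raw counts for 28278 gene symbols. The submitters' processing notes list TopHat2, edgeR 3.38.1, limma 3.52.2 and hg38 without roles. Which program counted the reads, on which annotation and strand, is not stated. Rows at 2 counts (643 to 686 per library) are about as many as rows at 1 (620 to 680). Whether both mates of a pair were counted is not stated either. One label calls the source mouse tissue. The line, organism and symbols are human.

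Members and lists were chosen with earlier results of these data known. Genes were filtered with filterByExpr (minimum count 10, total 15), leaving 15131, scaled by TMM and compared with edgeR 4.0.16 (R 4.3.3, quasi-likelihood F test, Benjamini-Hochberg over all genes, threshold 0.05) on all 6 libraries. The SE is the fold change over the square root of F. Sums and parts of rows were fitted in place of their rows and get no p. Splitting rows into shared and own reads was chosen after seeing the data. The test was tried on simulated counts with known changes. The split was run only on simulated rows of which most had no own reads, where it must return the shared reads. That run therefore cannot show that the split is right for these data. Own reads held by every row of an array would be taken as shared.

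All members were described. Values in every library were given for the array sums, for called members and for members of at least 1 CPM, where rows repeating the shared reads are given by these. Per companion list, at most 4 called genes per direction with the smallest p were named, and others named were chosen after their values were seen. Promoters are from RefSeq (GRCh38.p14), exon lengths from GENCODE release 29, perhaps not the annotation used for counting. Proteins were not used here. Alternatives were RLE, upper-quartile and no scaling factors, other filters, no ribosomal RNA rows, DESeq2 1.42.0, robust empirical Bayes, a replicate block and leaving libraries out.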

Additional observations from a re-analysis of the deposited data

How the results depend on the processing

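Over 16 alternatives between 2 and 17 clustered protocadherin rows were called, 12 of the 16 counts lying within 1.5 times the 16 reported. Leaving out 1 library gave the range from 2 to 17, with 2 calls without shTRIM21 replicate 3. The joint alpha measure kept a positive log2 fold change in all 19 alternatives, some of which joined the rows otherwise than by a sum. Library sizes alone gave 0.76, and omitting shControl replicates 1 and 3 gave 0.68, a choice made after seeing the data that leaves 1 control library. The summed gamma rows gave 0.12 with library sizes alone. In place of the sum, the highest row of each library gave -0.00072 and each read counted once 0.021. The gamma shared reads gave 0.11 with library sizes alone. PCDHGA10 was 0.040 with upper-quartile factors, 0.22 with library sizes alone, 0.0043 with a stricter filter, 0.073 without shControl replicates 1 and 3 and -0.042 to 0.051 with 1 library left out. Its own reads ranged from -0.013 to 0.32. PCDHB14 was called with library sizes alone (adjusted p = 0.00779, edgeR). With library sizes alone 14 related genes were called in place of 24. The cause of these changes was not tested.

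The replicate numbers do not pair the libraries: deviations of same-numbered libraries correlated at -0.013, 0.0057 and -0.080. With the replicate block 17 members were called, PCDHB14 being added (log2 fold change 1.33, adjusted p = 0.0403, edgeR), and 23 related genes. No beta gene reached 1 CPM, so a beta value at that minimum could not be had, and PCDHB13 and PCDHB14 do not pass the stricter filter. Few counts limit the beta genes and most own reads.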

Other observations

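Pseudogenes of the clusters were at or near 0. PCDHB17P had 6 counts over the 6 libraries, PCDHB18P 13, PCDHB19P 6 and PCDHGB8P 6. PCDHB19P had all of its 6 counts in shTRIM21 replicate 1, and PCDHB18P had 6 of its 13 in shControl replicate 3. No comparison was made at these counts.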
